A study of Solanum lycopersicum with 6 samples.

Results

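Chlorophyll a-b binding proteins are the light-harvesting antenna of the chloroplast, and 35 of the 21708 genes listed in any library of tomato (Solanum lycopersicum) exocarp were described as such. A gene was taken as a member when its product description or its best protein hit named a chlorophyll a-b binding, light-harvesting or early light-induced protein, or when its pathway field held the KEGG antenna pathway. All 35 matched by description and 28 of them also by best hit, while 0 matched through the pathway field and 0 through the early light-induced pattern. By the name of the best hit, with the annotated photosystem where that name alone was ambiguous, 7 members were placed in the photosystem I (PSI) antenna, 17 in the major and 4 in the minor photosystem II (PSII) antenna. The exception was Solyc03g005770.4, whose best hit is an uncharacterized protein. It was placed with the CAB3 genes of the major antenna because its description cites the same database protein as those of Solyc03g005760 and Solyc03g005780. The other 7 had a best hit that named no photosystem and are described separately.

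The study measured RNA in exocarp, the outer layer of the fruit with its epidermis and cuticle, in 3 wild-type (WT) libraries and 3 libraries of a SlNOR-like1 knockout (nor-like1). SlNOR-like1 is a NAC-domain transcription factor, and all 6 libraries came from fruit at the stage labelled MG. The authors' deposited comparison calls the mutant nor-like1-1, and whether that names a single line is not stated. How the knockout was made and whether the libraries came from separate plants is not stated in the sources used here. The p-values therefore rest on the spread among 3 libraries per genotype, which may be technical. The libraries are written WT1, WT2 and WT3 and nl1, nl2 and nl3, and values are given in that order. Libraries held between 8503210 and 17578533 expected counts, and each nor-like1 library was shallower than each WT library. The SlNOR-like1 transcript (Solyc07g063420.3) measured 129.8, 114.3 and 120.8 CPM (counts scaled to library size) in WT and 24.5, 16.9 and 18.1 CPM in nor-like1. All 6 cuticle and epidermis markers were detected, with a summed level of 2248 to 2506 CPM in WT and 5457 to 6598 CPM in nor-like1. The lipid-transfer protein Solyc10g075100.2 carried most of that sum. Of the 6 markers 2 were called higher and 2 lower, beside 10.5% and 11.4% of all genes tested. Among 19 listed seed genes 5 were tested and 0 were called by edgeR or DESeq2, 0 of them at an unadjusted p below 0.05 in edgeR (all genes, 19.8% lower and 18.1% higher), and the list summed to 10.2 to 23.1 CPM with the vicilin and 11S globulin genes mostly at or near 0. Among 12 listed vascular genes 5 were tested and 2 were called higher (40.0%, beside 10.5% of all genes). The list summed to 114.6 to 158.9 CPM in WT and 196.9 to 337.6 CPM in nor-like1. The part of the epidermis and vascular sums in the antenna results was not tested.

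Antenna proteins bind chlorophyll a, chlorophyll b and carotenoids and pass the energy of absorbed light to the reaction centres. LHCA proteins form a belt on one side of PSI. LHCB1, LHCB2 and LHCB3 make up the trimers of LHCII, the major PSII antenna, and the monomeric CP29, CP26 and CP24 join those trimers to the PSII core. They are encoded in the nucleus, and in tomato LHCB1 is encoded by a family of CAB1 and CAB3 genes. Green tomato fruit holds photosynthetic chloroplasts, which turn into chromoplasts at ripening.

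The library nl1 stood apart for the antenna genes. It was the lowest nor-like1 library for 19 of the 22 tested genes placed in an antenna class (86.4%), or 18 of 21 without Solyc03g005770, against 36.8% of all genes tested. The median of those 22 genes, as log2 over the WT mean, was -0.63 in that library, -0.15 in nl2 and 0.02 in nl3, where the median over all genes lay between -0.01 and 0.00 in these 3 libraries. WT3 was in turn the lowest WT library for 77.3% of the antenna genes and 40.8% of all genes. Ripening genes also separated libraries of 1 genotype, with 0 of 5 tested called by edgeR or DESeq2. At an unadjusted p below 0.05 in edgeR 1 was higher, beside 18.1% of all genes. E8, an ethylene-responsive ripening gene, measured 1195, 148.2 and 119.4 CPM in WT and 293.9, 27.1 and 13.1 CPM in nor-like1. PSY1, the fruit phytoene synthase, measured 411.2, 155.8 and 198.8 CPM in WT and 628.3, 139.8 and 107.2 CPM in nor-like1. The summed ripening markers were thus highest in WT1 and in nl1 (1792 and 1171 CPM), and their part in the antenna levels was not tested.

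Of the 35 members 29 had enough counts to be tested. The 6 below the filter were the CAB4-like gene on chromosome 6 (Solyc06g069730.3), 4 CAB1 copies on chromosome 2 (Solyc02g070950.1, Solyc02g070970.1, Solyc02g070980.1 and Solyc02g071000.1) and a CAB3C-like gene on chromosome 8 (Solyc08g067330.1), none of which was above 1.104 CPM in any library. With edgeR's quasi-likelihood test, 7 of the 29 passed an adjusted p of 0.05, or 24.1%, beside 21.9% of the 16380 genes tested. Of these, 5 were lower in nor-like1 (17.2%, beside 11.4% of all genes) and 2 were higher (6.90%, beside 10.5%). Of the 5, CAB1B-like (Solyc02g070990.1) had been tested through its WT libraries only, and without it 4 of 28 were lower (14.3%). The median log2 fold change, nor-like1 over WT, was -0.34 over the 29 members and -0.01 over all genes. In 9 members every nor-like1 library lay below every WT library, and in 2 every one lay above, so that 11 of 29 did not overlap, CAB1B-like among the 9. Over all genes 42.9% did not overlap, with 22.4% below and 20.5% above. The share of members called was therefore near that of all genes, and the members differed among themselves. In bulk tissue, fewer chloroplast-rich cells and less of these transcripts per cell cannot be told apart.

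Without nl1, 6 members were called lower and 4 higher, among 22.5% of all genes called. The 2 added rises were the LHCB1 gene CAB3A-like (Solyc03g005760.1) and its neighbour Solyc03g005770.4. Leaving out another library left 3 lower and 1 higher without WT1, WT2 or nl2, 4 and 1 without nl3, and 6 and 1 without WT3. The share of all genes called in those fits was 9.05% without WT1, 6.85% without WT2, 8.49% without nl2, 9.94% without nl3 and 28.5% without WT3. DESeq2 called 6 members lower and 3 higher, and 24.6% of all genes.

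**Figure D1:**
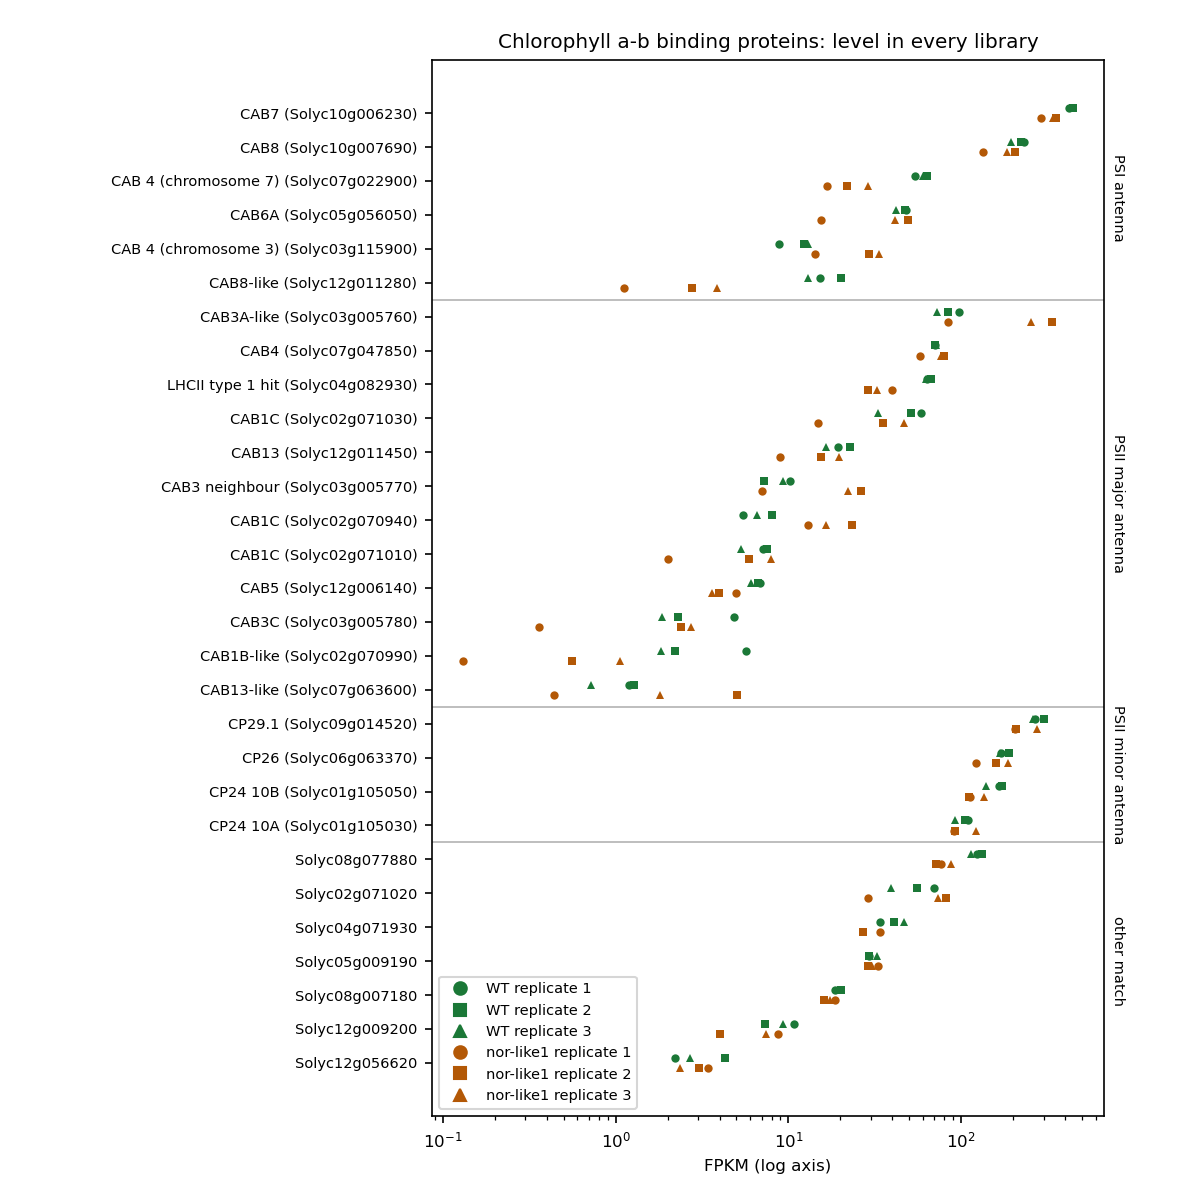
Level of each of the 29 tested genes in FPKM, the authors' length-scaled unit (logarithmic axis), in the 3 WT libraries (green) and the 3 nor-like1 libraries (orange), with 1 marker shape per replicate number. Genes are grouped by antenna class and ordered by level; CAB7 is highest, and in CAB8-like and in the PSI gene Solyc07g022900 the colours separate clearly.

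On the length-corrected FPKM scale, the highest WT level belonged to CAB7 (Solyc10g006230.4), the LHCA2-type protein of PSI, at 436.6 ± 14.8 FPKM (SD, n = 3). CP29.1 followed at 276.9 ± 22.2 FPKM and CAB8, the LHCA3-type protein, at 216.1 ± 19.4 FPKM. CP26 stood at 175.8 ± 12.1 FPKM and CP24 10B at 158.6 ± 17.8 FPKM, levels whose spread overlapped. The most abundant LHCB1 gene in WT, CAB3A-like (Solyc03g005760.1), was at 84.1 ± 12.2 FPKM. In nor-like1 CAB7 remained first at 328.4 ± 35.1 FPKM, CP29.1 was at 229.4 ± 39.3 FPKM and CAB3A-like at 223.8 ± 128.3 FPKM, with a spread that reached past CAB8 at 174.1 ± 36.7 FPKM.

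In the PSI antenna 2 of 6 tested members fell in nor-like1, 1 rose and 3 did not pass the test. Called lower were thus 33.3% and higher 16.7%, beside 11.4% and 10.5% of all genes. The PSI gene on chromosome 7 whose best hit is named chlorophyll a-b binding protein 4 (Solyc07g022900.4) measured 66.3, 76.2 and 70.6 CPM in WT and 20.3, 26.6 and 35.1 CPM in nor-like1. The highest nor-like1 library was well under the lowest WT library, and the gene fell 2.60-fold (log2 fold change -1.38, SE 0.195, edgeR adjusted p = 0.00589). CAB8-like (Solyc12g011280.2), the smaller of the 2 LHCA3-type genes, measured 15.2, 19.6 and 12.2 CPM in WT and 1.09, 2.72 and 3.8 CPM in nor-like1. It fell 6.27-fold (log2 fold change -2.65, SE 0.407, edgeR adjusted p = 0.00841). Each of these 2 genes also passed when any single library was left out, with adjusted p up to 0.0336 and 0.0443.

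Against these falls stood the PSI gene on chromosome 3 that has a hit of the same name, Solyc03g115900.5. It measured 10.9, 14.8 and 15.4 CPM in WT and 17.3, 35.9 and 41.2 CPM in nor-like1. All nor-like1 libraries were above all WT libraries, but nl1 was only just so. The log2 fold change was 1.20 (SE 0.331, edgeR adjusted p = 0.047). That call was lost when WT1 (adjusted p = 0.135), WT2 (0.128), WT3 (0.0656), nl2 (0.143) or nl3 (0.129) was left out, and it was kept without nl1 (0.00511). The authors' deposited DESeq2 table gives this gene an adjusted p of 0.00352.

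The 3 other tested PSI genes included the most abundant ones and did not pass. CAB7 measured 528.1, 550.0 and 534.5 CPM in WT and 358.4, 446.1 and 425.1 CPM in nor-like1. Its groups did not overlap, and the log2 fold change of -0.39 (SE 0.123) had an edgeR adjusted p of 0.0597. DESeq2 put the adjusted p at 0.0202, and the authors' deposited DESeq2 table gives 0.0229. CAB8 (Solyc10g007690.3) measured 256.0, 238.3 and 204.8 CPM in WT and 144.8, 224.9 and 200.2 CPM in nor-like1, with overlapping groups and an adjusted p of 0.274. CAB6A (Solyc05g056050.3), the LHCA1-type protein, stood at 45.6, 43.7 and 37.9 CPM in WT and at 14.4, 46.5 and 38.8 CPM in nor-like1, so that nl1 alone was low. Its log2 fold change was 0.01 without nl1.

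In the major PSII antenna 2 of 12 tested members fell, 1 rose and 9 did not pass the test. The shares of 16.7% lower and 8.33% higher stand beside 11.4% and 10.5% of all genes. The LHCB1 genes of chromosome 2 and chromosome 3 did not share 1 direction. CAB1C (Solyc02g070940.1), on chromosome 2, measured 3.84, 5.49 and 4.38 CPM in WT and 8.84, 16.2 and 11.4 CPM in nor-like1. Every nor-like1 library was above every WT library, and the gene rose 2.68-fold (log2 fold change 1.42, SE 0.262, edgeR adjusted p = 0.0125), a call kept with any single library left out (adjusted p up to 0.0494). The more abundant chromosome 2 copy Solyc02g071030.2, whose best hit has the same name, measured 41.0, 35.1 and 22 CPM in WT and 10.1, 24.3 and 32.4 CPM in nor-like1, and the groups overlapped (log2 fold change -0.56, adjusted p = 0.391). CAB1B-like (Solyc02g070990.1) measured 4.01, 1.51 and 1.22 CPM in WT and 0.0911, 0.389 and 0.712 CPM in nor-like1, from 106 counts in all against 11. It was called lower (log2 fold change -2.55, SE 0.738, edgeR adjusted p = 0.0477) and had passed the filter, which lies at 0.89 CPM, through its WT libraries only. The call was kept only without WT3 (adjusted p = 0.0274). It was lost without WT1 (0.135), WT2 (0.0929), nl1 (0.0895), nl2 (0.147) or nl3 (0.0765). The authors' deposited DESeq2 table gives CAB1B-like an adjusted p of 0.0193.

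The CAB3 genes of chromosome 3 lie next to each other in identifier order, and a pair of them had the highest log2 fold changes among the uncalled LHCB1 genes. CAB3A-like (Solyc03g005760.1) measured 68.8, 57.5 and 48.6 CPM in WT and 57.6, 234.2 and 176.7 CPM in nor-like1. The libraries nl2 and nl3 were far above WT, and nl1 was within the WT range. The log2 fold change of 1.42 (SE 0.486) did not pass in edgeR (adjusted p = 0.0848), whereas it passed in DESeq2 (0.00335) and without nl1 (0.00427, log2 fold change 1.82). In the authors' deposited table the gene has a log2 fold change of 1.23 and an adjusted p of 0.00482. Its neighbour Solyc03g005770.4, the gene placed by its description, repeated the pattern at 8.60, 5.84 and 7.35 CPM in WT and 5.74, 21.8 and 18.3 CPM in nor-like1 (adjusted p = 0.157, and 0.00736 without nl1). CAB3C (Solyc03g005780.3) differed from both, at 6.16, 2.83 and 2.25 CPM in WT and 0.456, 3.02 and 3.44 CPM in nor-like1 (log2 fold change -0.73, adjusted p = 0.481).

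Solyc04g082930.3 was called lower, but its match to LHCII type 1 was weak, with an E value of 6.7e-26 where the tested CAB1 and CAB3 genes had between 1e-153 and 3.2e-152. It measured 95.3, 98.9 and 90.5 CPM in WT and 59.3, 43.4 and 49.0 CPM in nor-like1. The groups were far apart, with a log2 fold change of -0.91 (SE 0.133, edgeR adjusted p = 0.00663, up to 0.0347 with 1 library left out). Sums over the major antenna are therefore given with and without it.

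The LHCB2-type gene CAB4 (Solyc07g047850.3) measured 64.6, 62.8 and 62.7 CPM in WT and 51.9, 72.2 and 69.2 CPM in nor-like1, with both groups around the same level (log2 fold change 0.02, SE 0.139, adjusted p = 0.917). The less abundant CAB5 (Solyc12g006140.2) was at 6.68, 6.28 and 5.65 CPM in WT and 4.74, 3.79 and 3.44 CPM in nor-like1. Its groups did not overlap, and its log2 fold change of -0.63 (SE 0.196) had an edgeR adjusted p of 0.0589, or 0.0423 without nl1. The LHCB3-type genes CAB13 (Solyc12g011450.2) and CAB13-like (Solyc07g063600.3) gave log2 fold changes of -0.40 (SE 0.289) and 1.21 (SE 0.786), neither of which passed. CAB13-like was low in WT, between 0.729 and 1.33 CPM, and reached 5.35 CPM in nl2.

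**Figure D2:**
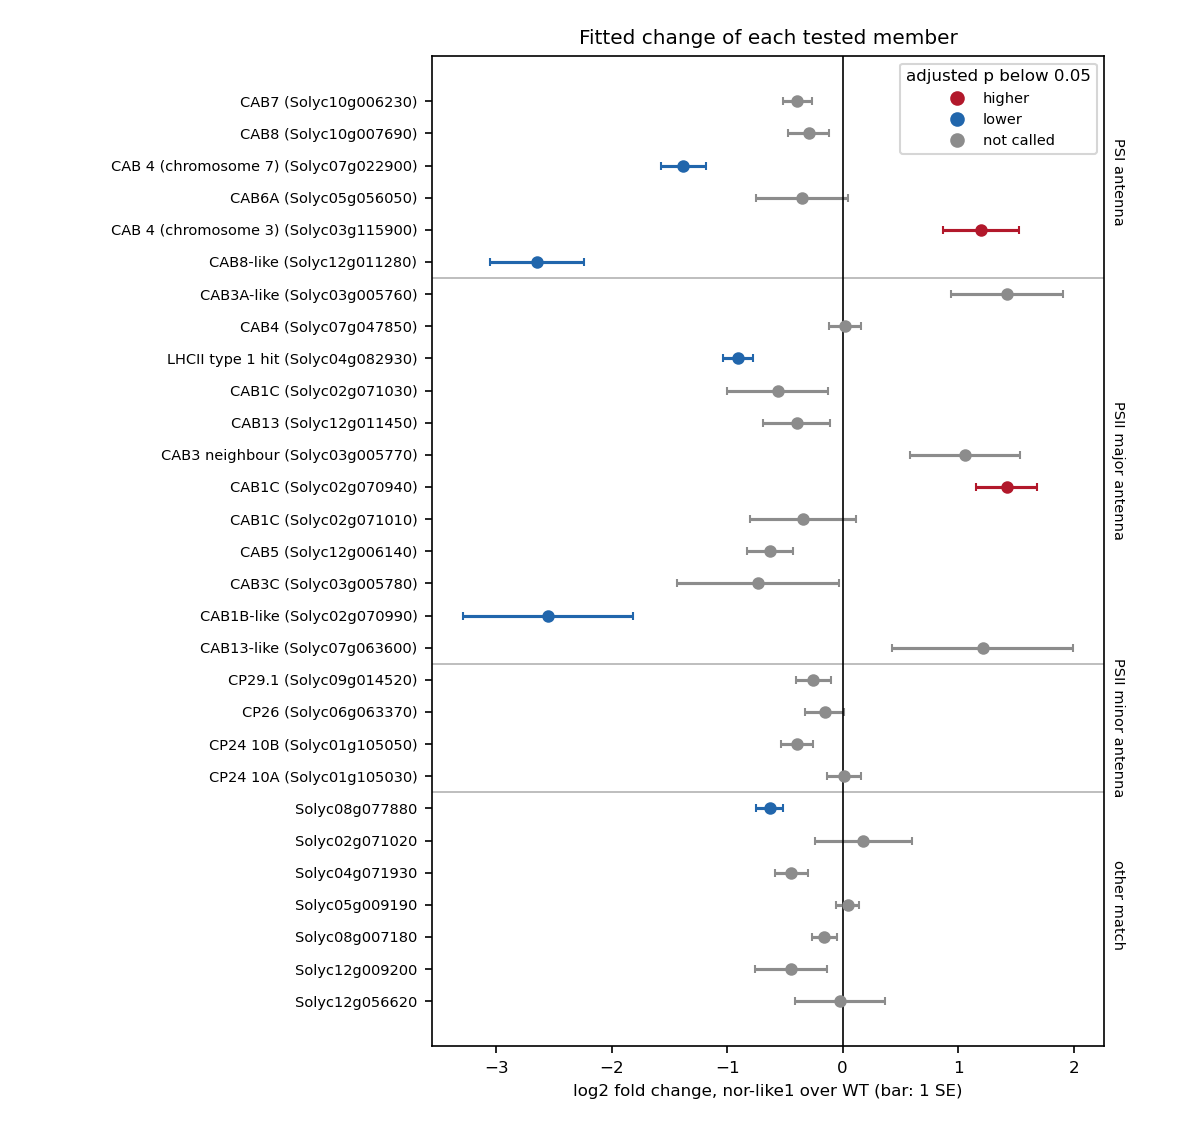
Fitted log2 fold change (nor-like1 over WT) of the 29 tested genes with 1 standard error on each side, coloured by the edgeR call. The 5 lower genes (blue) and 2 higher genes (red) are spread over the classes, and the 4 minor PSII antenna genes lie between -0.39 and 0.01.

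In the minor PSII antenna 0 of 4 members were called by edgeR, with 1 (CP24 10B, lower) at an unadjusted p below 0.05, and DESeq2 and limma called 0 as well. Of all genes edgeR called 21.9%, and 19.8% were lower at that unadjusted p. CP29.1 (Solyc09g014520.3) measured 355.3, 395.5 and 335.5 CPM in WT and 270.7, 277.4 and 363.9 CPM in nor-like1 (log2 fold change -0.25, SE 0.15, adjusted p = 0.261). CP26 (Solyc06g063370.3) measured 225.1, 245.4 and 211.8 CPM in WT and 158.1, 209.5 and 244.7 CPM in nor-like1 (log2 fold change -0.16, SE 0.17, adjusted p = 0.533). In both genes nl3 was within the WT range and nl1 was the lowest library.

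CP24, the LHCB6 protein, is encoded by a pair of genes with nearby identifiers on chromosome 1. CP24 10A (Solyc01g105030.3) measured 122.3, 114.9 and 99.4 CPM in WT and 100.3, 103.2 and 136.0 CPM in nor-like1, with a log2 fold change of 0.01 (SE 0.151). CP24 10B (Solyc01g105050.3) measured 164.5, 167.5 and 131.4 CPM in WT and 109.6, 109.5 and 133.8 CPM in nor-like1, with a log2 fold change of -0.39 (SE 0.14, edgeR adjusted p = 0.0858). Without WT3 the latter passed (adjusted p = 0.0294).

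Of the 7 members whose best hit named no photosystem, 1 was called (14.3%, beside 21.9% of all genes). Solyc08g077880.3, whose best hit is an uncharacterized protein, measured 146.4, 152.8 and 128.5 CPM in WT and 89.2, 84.9 and 101.9 CPM in nor-like1. It fell by 0.63 on the log2 scale (SE 0.118, edgeR adjusted p = 0.0131) with groups apart. Leaving out WT1, WT2 or nl2 ended the call, at 0.0508, 0.0589 and 0.0536. The remaining 6, among them a gene whose best hit is a cysteine-tRNA ligase and one whose best hit is an inactive protein kinase, had log2 fold changes between -0.45 and 0.18 with adjusted p from 0.0659 up to 0.968. Without these 7 members, 4 of 22 tested genes were lower and 2 higher (18.2% and 9.09%, beside 11.4% and 10.5% of all genes). CAB1B-like, tested through its WT libraries only, is among those 4.

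**Figure D3:**
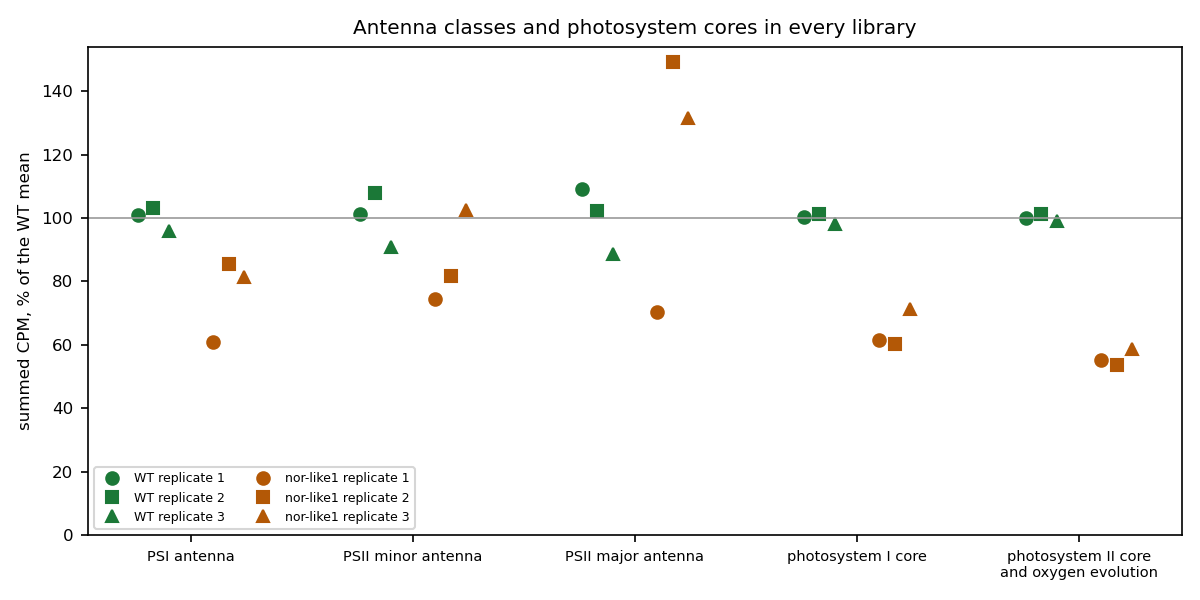
Summed CPM of each antenna class and of the photosystem core subunits in each library, as a percentage of the mean of the 3 WT libraries (grey line at 100). The core sums of all 3 nor-like1 libraries (orange) are below WT, while in the major PSII antenna nl1 is below the WT libraries and nl2 and nl3 are above them.

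Because near-identical antenna genes can share reads, the classes were also summed, which removes the effect of dividing reads within a class. The PSI antenna summed to 923.2, 943.1 and 876.2 CPM in WT and 556.9, 783.0 and 744.7 CPM in nor-like1, a ratio of means of 0.76 with groups that did not overlap. The major PSII antenna summed to 325.3, 304.3 and 264.5 CPM in WT and 209.4, 444.6 and 392.0 CPM in nor-like1, a ratio of 1.17 with nl1 below and the others above WT. Without the weak match Solyc04g082930 that ratio was 1.47, and without Solyc03g005770 it was 1.15. The minor PSII antenna summed to 867.2, 923.3 and 778.2 CPM in WT and 638.7, 699.7 and 878.4 CPM in nor-like1, a ratio of 0.863 with overlap. Without nl1 these ratios were 0.836 for the PSI antenna, 1.4 for the major and 0.922 for the minor PSII antenna.

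Shares within a family are not scaled by the depth or the overall antenna level of a library. Unlike the class sums, shares among near-identical genes depend on how reads were divided, so those of single CAB1 and CAB3 genes are uncertain. Of 15 shares computed, some of them nested, 11 did not overlap between genotypes and 4 did. Several families were singled out after their values were seen, so this tally does not show how often shares differ. The shares are sums of FPKM in percent, and with 3 against 3 libraries an exact two-sided permutation test cannot give a p below 0.1, so they are described without a test. The PSI antenna made up 42.3%, 42.5% and 44.7% of the antenna transcripts placed in a class in WT and 38.2%, 37.0% and 34.4% in nor-like1. The major PSII antenna made up 19.1%, 17.3% and 16.8% in WT and 18.9%, 31.3% and 26.5% in nor-like1, and the minor PSII antenna 38.6%, 40.2% and 38.5% against 42.9%, 31.7% and 39.1%, both with overlap. The shares of CAB7 in the PSI antenna and of CAB13-like in the LHCB3 genes overlapped as well. Within the CAB1 and CAB3 genes, CAB3A-like made up 50.7%, 51.3% and 55.0% in WT and 68.8%, 77.8% and 71.8% in nor-like1. The chromosome 2 CAB1 genes made up 41.2%, 42.9% and 36.5% of the same sum in WT and 25.1%, 15.5% and 21.1% in nor-like1.

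Within the chromosome 2 CAB1 genes, Solyc02g070940 made up 6.93%, 11.5% and 13.7% in WT and 42.5%, 35.1% and 22.2% in nor-like1. This share depends on how reads were divided among near-identical copies. CAB8-like made up 6.19%, 8.39% and 6.22% of the LHCA3 transcripts in WT and 0.831%, 1.33% and 2.06% in nor-like1. Of the PSI genes with a hit named chlorophyll a-b binding protein 4, Solyc03g115900 made up 13.8%, 16.1% and 17.6% in WT and 45.0%, 56.8% and 53.4% in nor-like1, so that in nl2 and nl3 it passed its chromosome 7 counterpart. CP24 10B made up 60.2%, 62.2% and 59.9% of the LHCB6 transcripts in WT and 55.3%, 54.5% and 52.6% in nor-like1. These families were singled out after their values were seen.

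**Figure D4:**
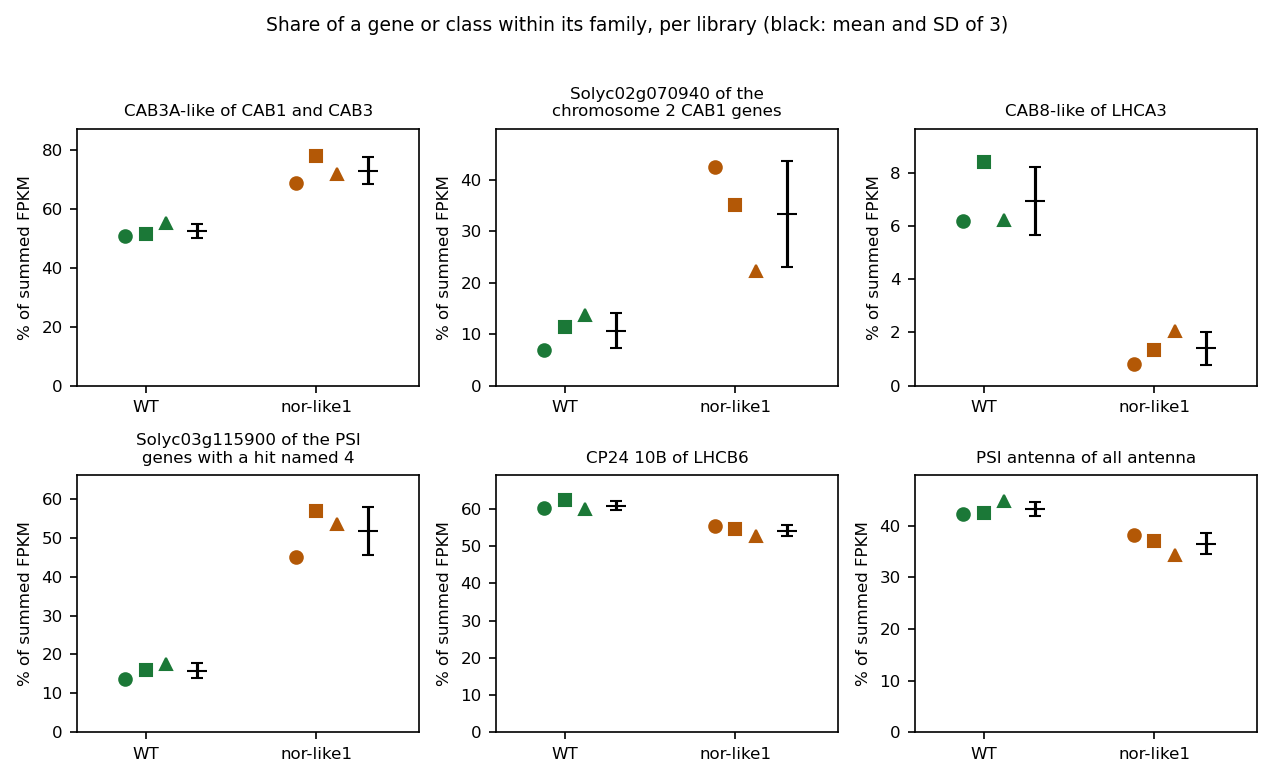
Share of a gene or class in the summed FPKM of its family, in percent, for the 3 WT (green) and 3 nor-like1 (orange) libraries; black marks give the mean and SD of 3 libraries. The 6 panels were chosen from the 11 of 15 shares that do not overlap between genotypes, and Solyc03g115900 moves from at most 17.6% in WT to at least 45.0% in nor-like1. Shares of single CAB1 and CAB3 genes depend on how reads were divided among near-identical copies.

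Genes that work with the antenna were counted from lists. Of 14 tested PSI core subunits 10 were lower and 0 higher (71.4% lower). Of 33 tested PSII core and oxygen-evolution genes, a pattern that also takes PsbP-like proteins and NDH subunits, 17 were lower and 0 higher (51.5% lower). DESeq2 gave the same counts, and of all genes edgeR called 11.4% lower and 10.5% higher. At an unadjusted p below 0.05, edgeR had 14 PSI genes lower and 0 higher, and 19 PSII genes lower and 5 higher, beside 19.8% of all genes lower and 18.1% higher. The 5 higher are D1 copies with identical counts and amount to 1 measurement. PSI reaction centre subunit IV (Solyc09g063130.3) and subunit N (Solyc08g013670.3) fell by 1.03 and by 0.85 on the log2 scale (edgeR adjusted p = 0.00272 and 0.00624). The PSII 10 kDa polypeptide (Solyc07g066310.3) and a PsbP-family gene (Solyc04g064670.3) fell by 1.16 and by 1.19 (adjusted p = 0.00261 and 0.00255). The counts depended on single libraries: 3 PSI core subunits were lower without WT1 or without WT2, 4 without nl2, 6 without nl3, 7 without nl1 and 11 without WT3. Of the PSII genes, 7 were lower without nl2, 8 without WT2, 9 without WT1, 11 without nl3, 14 without nl1 and 17 without WT3, where the 5 D1 copies were called higher. The PSI core summed to between 2001 and 2062 CPM in WT and 1227 and 1450 CPM in nor-like1, and the PSII list to between 4828 and 4937 CPM and 2613 and 2863 CPM. Whether the antenna changed less than the cores was not tested.

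Of 11 tested genes for antenna import, insertion and phosphorylation 2 were lower and 0 higher in edgeR and in DESeq2, and 4 and 1 at an unadjusted p below 0.05 in edgeR. The called share of 18.2% lower stands beside 11.4% of all genes lower and 10.5% higher. At the unadjusted p 19.8% of all genes were lower and 18.1% higher. Protein phosphatase 2C 57 (Solyc03g082960.2), the best hit of which corresponds to the LHCII phosphatase TAP38/PPH1 of Arabidopsis, measured 110.3, 116.0 and 94.8 CPM in WT and 70.2, 59.0 and 71.2 CPM in nor-like1 (log2 fold change -0.68, edgeR adjusted p = 0.0124, and 0.0548 without WT2). A less abundant gene with a 2C 57 hit, Solyc06g065610.3, named after its values were seen, was not called. It measured 11.4, 12.6 and 13.1 CPM in WT and 13.9, 17.8 and 14.6 CPM in nor-like1 (log2 fold change 0.32, edgeR adjusted p = 0.141). The chloroplast signal recognition particle protein cpSRP54 (Solyc09g009940.3), which carries antenna proteins to the thylakoid, fell by 0.45 (adjusted p = 0.0371). Its call was kept only without WT3 (0.0277), with adjusted p between 0.0596 and 0.133 without any other library. The 9 not called included cpSRP43, the FtsY receptor, LTD, the kinases STN7 and STN8 and the ALBINO3-like genes.

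Chlorophyll synthesis held 17 tested genes, of which 5 were lower (29.4%) and 2 higher (11.8%). Chlorophyll breakdown held 10, of which 2 were lower and 1 higher. Beside these counts, edgeR called 11.4% of all genes lower and 10.5% higher. Protochlorophyllide oxidoreductase 1 (Solyc12g013710.2), with a WT mean of 5.55 CPM, rose by 1.69 on the log2 scale (edgeR adjusted p = 0.0238). With 1 library left out its call was kept only without WT3 or nl1, and the adjusted p reached 0.0811 without WT1 or WT2. The more abundant oxidoreductase 2 (Solyc07g054210.3), named after its values were seen, leaned the other way and was not called. Its WT libraries held 143.4, 147.5 and 92.91 CPM. The nor-like1 libraries held 77.02, 94.65 and 87.87 CPM, with overlap (log2 fold change -0.56, edgeR adjusted p = 0.0737). A glutamyl-tRNA reductase (Solyc04g076870.4) fell by 0.81 (adjusted p = 0.0273). That call was kept only without WT3 or nl3, and the adjusted p reached 0.0971 without WT2. A less abundant glutamyl-tRNA reductase (Solyc01g106390.3), named after its values were seen, moved the other way, from 44.2, 36.5 and 27.0 CPM in WT to 52.4, 107.7 and 139.8 CPM in nor-like1 (log2 fold change 1.48, adjusted p = 0.0393), and was called in the fits with 1 library left out only without nl1 (0.0066). In breakdown, 7-hydroxymethyl chlorophyll a reductase (Solyc09g091100.4) fell by 0.43 (adjusted p = 0.0298). Its call was kept only without WT3 or nl1, and the adjusted p reached 0.103 without WT1 or nl2. A pheophytinase-hit gene (Solyc02g062610.3) rose by 1.07 (adjusted p = 0.0388, but between 0.0634 and 0.128 without any 1 library). That gene was low, at 1.77 to 2.56 CPM in WT. Of the other 4 pheophytinase-hit genes, singled out after their values were seen, 3 were not called and Solyc10g049560.3 fell by 0.64 (adjusted p = 0.0431, up to 0.151 without WT2, and kept only without WT3). The most abundant, Solyc01g088090.3, at a mean of 128.5 CPM in WT and 114.5 CPM in nor-like1, had an adjusted p of 0.38. Without WT1, WT2 or nl2 each of these lists had 0 genes called by edgeR in either direction, while at an unadjusted p below 0.05 6 to 8 synthesis genes were lower and 2 higher, and 2 to 3 breakdown genes were lower and 1 higher. Over all genes the shares at that p were 14.8% lower and 14.4% higher without WT1, 14.4% and 13.7% without WT2, and 14.7% and 14.0% without nl2.

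Among 10 tested regulators of fruit chloroplasts 2 were lower and 1 higher, where edgeR called 11.4% of all genes lower and 10.5% higher. GLK2 (Solyc10g008160.3), the GOLDEN2-like factor known to drive chloroplast development in green tomato fruit, measured 7.26, 6.20 and 6.99 CPM in WT and 0.820, 2.04 and 2.14 CPM in nor-like1. It fell 4.13-fold (log2 fold change -2.05, SE 0.34, edgeR adjusted p = 0.00917, up to 0.039 with 1 library left out). APRR2-like (Solyc08g077230.3), a related response regulator, measured 8.14, 8.85 and 8.20 CPM in WT and 25.7, 16.2 and 14.6 CPM in nor-like1 (log2 fold change 1.17, adjusted p = 0.0144, and 0.0519 and 0.0547 without WT1 and WT2). The other lower gene, Solyc01g102300.3, had PIF3 as its best hit and was named after its values were seen. It measured 299.5, 334.1 and 233.3 CPM in WT and 164.2, 112.4 and 158.3 CPM in nor-like1. The log2 fold change was -0.99 (edgeR adjusted p = 0.0148, and 0.059 without WT2). Among the nor-like1 libraries GLK2 was lowest in nl1, as were 86.4% of the tested genes placed in an antenna class and 36.8% of all genes. The part of GLK2 in the antenna levels was not tested.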

How the data were processed

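RNA-seq libraries of exocarp from 3 WT and 3 nor-like1 samples were used, grouped by the labels. The authors deposited a table per library with expected counts and FPKM per gene, per the file headers. The submitters' processing notes name 4 tools, RSEM, Bowtie2, StringTie and HISAT2. The genome build, the annotation, what each tool did and whether strand was used are not given in those sources. Genes absent from a library's table were set to 0. The authors' deposited DESeq2 table, with log2 fold changes and adjusted p-values, was only quoted beside the values computed here.

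The deposited expected counts, rounded to whole numbers, went into a test over all genes with edgeR 4.0.16 in R 4.3.3 (filterByExpr, TMM factors, robust quasi-likelihood fit, genotype as the only term), with Benjamini-Hochberg adjustment and calls below 0.05. Adjusted p-values come from it unless DESeq2 or limma is named. The SE is the absolute log2 fold change over the square root of F. CPM uses TMM-scaled library sizes. FPKM was used for levels between genes and for shares. The floor of 3 counts was 0.174 to 0.356 CPM over the 6 libraries, which covers counting error only. RSEM can split reads over near-identical genes: 6 of the 35 members had a count that was not whole in some library, so single CAB1 and CAB3 genes are uncertain.

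The rule for named genes gave full values for the most abundant member of each class, called members and members moving against their class, and up to 2 called genes per pathway list. Members and lists were chosen with earlier results of these data known. Members were classed by best-hit name, except Solyc03g005770 by its description, since the files hold KEGG pathways but no orthology term. The gene fixed as the ripening marker ACS4 is described in the files as a xyloglucan endotransglucosylase and was not tested. Alternatives were DESeq2 1.42.0, limma 3.58.1 on log2(FPKM + 1) and log2(FPKM + 0.1), other size factors and filters, thinned counts, a replicate block and leaving out each library.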

Additional observations from a re-analysis of the deposited data

How the results depend on the processing

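The 5 members called lower became 3 to 6 when 1 library was left out, and the 2 called higher became 1 to 4. In the same fits the genes called in all went from 3585 to between 1139 and 4742. Only 1 member was higher with limma on log2(FPKM + 1), with or without the filter, with limma on log2(FPKM + 0.1), and in edgeR without a filter; the call of Solyc03g115900 was the one lost. The median log2 fold change of the members with no photosystem in their hit was -0.276 with counts thinned to the smallest library, where 27 members were tested, and -0.158 in the reported fit. No other class median, and no ratio of class sums, moved by more than its spread under any alternative run. For the major PSII antenna, however, the nor-like1 sums had an SD of 123 CPM around a mean of 348.6 CPM. A ratio with so wide a spread can move far within it, as that ratio did without nl1. The cause of these changes was not tested, and the fits with 1 library left out also rest on fewer libraries. Leaving out 1 library, or a change of scale, turned the sign of 7 uncalled genes. CP24 10A ranged from -0.138 to 0.0926 over the fits with 1 library left out, and gave -0.0138 with limma on log2(FPKM + 0.1) and -0.0136 on log2(FPKM + 1). CAB4 Solyc07g047850 ranged from -0.0677 to 0.16 and gave -0.0065 and -0.0062 in those limma fits. The ranges were -0.741 to 0.0621 for Solyc02g071010, -0.0878 to 0.526 for Solyc02g071020, -0.004 to 0.086 for Solyc05g009190, -0.681 to 0.0131 for CAB6A and -0.203 to 0.267 for Solyc12g056620, which gave 0.0096 with upper-quartile factors. The labels do not say whether replicate numbers pair the samples. The deviations of same-numbered libraries correlated at 0.222, -0.23 and 0.0177, and those of differently numbered ones at -0.26 to 0.324, which does not decide it. With the replicate block 4 members were lower and 2 higher, of 2626 genes called, and CAB1B-like had an adjusted p of 0.106. The block left 6 PSI core, 13 PSII core, 1 chlorophyll synthesis, 0 breakdown and 1 import genes lower, and 1 synthesis and 1 breakdown gene higher. It called 2 of 5 ripening genes lower, E8 (log2 fold change -2.53, adjusted p = 0.00695) and polygalacturonase (-4.06, 0.013). Their SE was 0.252 and 0.53 with the block and 1.425 and 1.78 without it. Depth limits the members near the floor, of which 6 were not tested.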

Other observations

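Some relatives of the antenna proteins outside the member rule were named after their values were seen, and they are not a full list. The gene whose best hit carries the RefSeq symbol ELIP, the early light-induced protein that binds pigment under light stress, is described in the files as a superoxide dismutase (Solyc09g082690.3). It measured 61.9, 28.9 and 37.4 CPM in WT and 103.4, 95.7 and 42.9 CPM in nor-like1 (log2 fold change 0.91, SE 0.412, edgeR adjusted p = 0.16). Stress enhanced protein 2 (Solyc04g053130.4), a light-stress relative of the antenna proteins, measured 841.2, 687.8 and 466.6 CPM in WT and 547.2, 392.9 and 369.4 CPM in nor-like1 (log2 fold change -0.61, SE 0.249, adjusted p = 0.122). Stress enhanced protein 1 (Solyc01g107660.3) changed by -0.23 on that scale (SE 0.12), with an adjusted p of 0.209. The photosystem II 22 kDa protein (Solyc06g060340.3), counted above in the PSII list, was called lower. It measured 350.2, 367.1 and 426.5 CPM in WT and 210.3, 202.4 and 201.4 CPM in nor-like1. The log2 fold change was -0.90 (edgeR adjusted p = 0.00472, up to 0.0271 with 1 library left out).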
